A study of Mus musculus with 24 samples.

Results

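Strong CpG island promoters that carried no peak of H3K4me3 in C127 cells were examined. H3K4me3, trimethylation of lysine 4 of histone H3, was mapped by ChIP-seq in C127, a mouse mammary epithelial cell line, with an in-house antibody, and the labels name no transgene or treatment for these samples. The series held 24 samples in 12 groups, and the 3 H3K4me3 replicates entered here through a single list of 13451 peaks that the authors kept where all replicates overlapped. Nothing in the labels says whether the replicates were separate cultures. The other 21 samples (ChIP of CFP1, KDM2B and RNA polymerase II, ChIP of GFP-tagged CFP1, of its mutants and of GFP alone, and inputs) were not analysed here. The list gives positions and no heights, so values have no spread between replicates and the read depth behind a missing peak is unknown.

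Strong islands were found in the mm10 sequence by length (500 bp or more), GC fraction (0.55 or more) and the ratio of observed to expected CpGs (0.65 or more). This ratio compares the CpGs present with those that the C and G content alone would give. Chromosomes 1 to 19 held 15312 such islands, of which 10493 came within 250 bp of a transcription start site (TSS) of a protein-coding gene. No peak overlapped 2415 of these 10493 (called unmarked below), and a peak overlapped 8078 (called marked). Absence of a peak was the value that chose the members, so the share of 23.0% (95% Wilson interval 22.2 to 23.8, counting error over loci only) is a description. Islands were assigned to 11182 genes. Of these, 2295 genes had no peak at any of their strong islands (20.5%), 8801 had a peak at each of them, and 86 were mixed. Among the 2295 unmarked genes, 26 had a peak at another coding TSS and 2269 had none at any coding TSS.

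CpG islands are stretches of DNA that kept their CpGs because they are usually free of DNA methylation, and they cover the start sites of most genes in the mouse. Proteins with a CXXC domain, such as CFP1 and KDM2B, bind the unmethylated CpGs, and CFP1 is a subunit of the SET1 complexes that place H3K4me3. At active genes the island around the TSS typically carries this mark, whereas silent island promoters are known to be held by Polycomb complexes or, in cell lines in particular, to become methylated. Neither Polycomb marks nor DNA methylation was analysed here.

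The TSS windows of unmarked genes from the groups described below, of the longest and the most CpG-dense unmarked islands, and of marked genes of basic cell functions are shown so that the CpGs of both classes can be compared by eye. Each runs from 250 bp before to 50 bp after an annotated TSS of the gene, the one nearest the middle of its island, in mm10, 5′ to 3′ on the gene's strand, with CpGs in capitals. Hoxd11, a homeobox factor of limb and trunk patterning, lies at chr2:74682073-74682372 (plus strand, 25 CpGs). Kcnc1, a voltage-gated potassium channel of neurons, lies at chr7:46397398-46397697 (plus strand, 20 CpGs). Pcdh8, a protocadherin, lies at chr14:79771263-79771562 (minus strand, 14 CpGs). Tdrd6, a Tudor domain protein of male germ cells, lies at chr17:43630217-43630516 (minus strand, 26 CpGs). Sall1, a zinc finger factor of kidney development at the longest unmarked island, lies at chr8:89044113-89044412 (minus strand, 18 CpGs). Jag2, a Notch ligand at the most CpG-dense unmarked island, lies at chr12:112929727-112930026 (minus strand, 37 CpGs). Marked Rpl7, a protein of the cytosolic ribosome, lies at chr1:16104613-16104912 (minus strand, 16 CpGs). Marked Mrps7, a protein of the mitochondrial ribosome, lies at chr11:115603675-115603974 (plus strand, 37 CpGs). Marked Psma7, a subunit of the proteasome, lies at chr2:180042384-180042683 (minus strand, 40 CpGs).
Hoxd11: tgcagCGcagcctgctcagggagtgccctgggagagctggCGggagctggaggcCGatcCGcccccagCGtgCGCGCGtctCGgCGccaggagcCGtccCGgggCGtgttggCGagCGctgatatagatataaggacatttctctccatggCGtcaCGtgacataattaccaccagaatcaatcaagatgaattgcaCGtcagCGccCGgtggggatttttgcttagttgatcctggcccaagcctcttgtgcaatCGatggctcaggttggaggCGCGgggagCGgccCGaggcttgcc
Kcnc1: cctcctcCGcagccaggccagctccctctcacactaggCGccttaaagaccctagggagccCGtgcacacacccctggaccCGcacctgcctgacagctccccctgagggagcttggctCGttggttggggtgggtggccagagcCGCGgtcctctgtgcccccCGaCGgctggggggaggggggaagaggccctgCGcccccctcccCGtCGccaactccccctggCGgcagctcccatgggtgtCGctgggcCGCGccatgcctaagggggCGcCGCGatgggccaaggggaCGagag
Pcdh8: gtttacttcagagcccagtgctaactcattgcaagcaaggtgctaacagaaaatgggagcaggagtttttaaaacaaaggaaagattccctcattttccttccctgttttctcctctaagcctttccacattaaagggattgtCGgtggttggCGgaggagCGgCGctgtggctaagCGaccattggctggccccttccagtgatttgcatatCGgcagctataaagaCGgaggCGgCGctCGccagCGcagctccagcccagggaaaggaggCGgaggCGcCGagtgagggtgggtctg
Tdrd6: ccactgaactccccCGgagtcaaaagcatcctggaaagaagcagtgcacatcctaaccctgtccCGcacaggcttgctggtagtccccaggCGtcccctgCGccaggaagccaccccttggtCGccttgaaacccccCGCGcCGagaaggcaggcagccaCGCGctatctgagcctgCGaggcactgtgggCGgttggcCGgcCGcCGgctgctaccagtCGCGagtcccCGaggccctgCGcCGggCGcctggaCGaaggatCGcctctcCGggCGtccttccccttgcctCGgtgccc
Sall1: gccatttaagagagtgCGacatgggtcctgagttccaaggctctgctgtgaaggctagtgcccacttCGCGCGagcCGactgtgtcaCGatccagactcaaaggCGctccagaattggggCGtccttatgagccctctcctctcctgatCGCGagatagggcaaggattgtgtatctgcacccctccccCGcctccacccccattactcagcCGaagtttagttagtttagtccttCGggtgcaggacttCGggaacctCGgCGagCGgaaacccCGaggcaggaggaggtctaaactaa
Jag2: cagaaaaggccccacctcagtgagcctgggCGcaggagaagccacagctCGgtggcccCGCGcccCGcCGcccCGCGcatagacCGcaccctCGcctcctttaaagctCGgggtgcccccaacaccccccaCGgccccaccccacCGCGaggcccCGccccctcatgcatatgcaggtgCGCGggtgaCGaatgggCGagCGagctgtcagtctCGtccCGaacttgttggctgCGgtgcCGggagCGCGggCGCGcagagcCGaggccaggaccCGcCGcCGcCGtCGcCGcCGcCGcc
Rpl7: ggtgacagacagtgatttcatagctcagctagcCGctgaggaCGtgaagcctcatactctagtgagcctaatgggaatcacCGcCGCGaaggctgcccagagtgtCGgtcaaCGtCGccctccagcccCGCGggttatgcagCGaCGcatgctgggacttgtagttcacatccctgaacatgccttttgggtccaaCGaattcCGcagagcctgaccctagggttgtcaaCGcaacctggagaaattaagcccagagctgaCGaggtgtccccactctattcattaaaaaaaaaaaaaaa
Mrps7: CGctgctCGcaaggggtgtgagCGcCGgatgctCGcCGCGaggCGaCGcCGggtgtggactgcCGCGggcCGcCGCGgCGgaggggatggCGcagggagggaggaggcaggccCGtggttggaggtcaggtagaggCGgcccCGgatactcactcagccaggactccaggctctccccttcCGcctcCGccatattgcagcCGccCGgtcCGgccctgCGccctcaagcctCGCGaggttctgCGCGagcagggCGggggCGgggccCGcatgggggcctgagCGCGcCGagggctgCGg
Psma7: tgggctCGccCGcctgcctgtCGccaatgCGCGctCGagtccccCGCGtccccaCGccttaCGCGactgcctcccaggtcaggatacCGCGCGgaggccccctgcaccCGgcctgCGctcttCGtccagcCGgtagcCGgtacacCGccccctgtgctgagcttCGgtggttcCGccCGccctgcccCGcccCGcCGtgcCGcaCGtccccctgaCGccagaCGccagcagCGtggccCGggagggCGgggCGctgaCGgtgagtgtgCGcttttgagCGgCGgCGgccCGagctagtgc

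CpGs are seen in unmarked windows as well as marked ones. The windows of Hoxd11 and Tdrd6 hold CpGs along their length, that of Jag2 equals Mrps7 in CpG number, that of marked Rpl7 holds fewer CpGs than those of 5 of the 6 unmarked genes, and that of Pcdh8 holds CpGs only in the part nearer the TSS and beyond it.

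The windows of Stag3 and Mrps18b were chosen after their values were seen, to show motifs that the results below turn on, again from 250 bp before to 50 bp after the TSS. The capitals here mark only the motifs named for each window, and other motifs counted below stay in lower case, such as the NRF1 core GCATGCGC in the window of Mrps18b. Stag3, a cohesin subunit of meiosis, was unmarked and had the longest island among the 5 unmarked germline genes whose window held both a CACGTG E-box and the E2F motif TTCCCGC (chr5:138280276-138280575, plus strand). Mrps18b, of the mitochondrial ribosome, was marked and had the longest island among the 11 marked genes of basic cell functions whose window held both the ETS motif CCGGAAG and the YY1 motif AAGATGGC, on either strand (chr17:35916340-35916639, minus strand).
Stag3: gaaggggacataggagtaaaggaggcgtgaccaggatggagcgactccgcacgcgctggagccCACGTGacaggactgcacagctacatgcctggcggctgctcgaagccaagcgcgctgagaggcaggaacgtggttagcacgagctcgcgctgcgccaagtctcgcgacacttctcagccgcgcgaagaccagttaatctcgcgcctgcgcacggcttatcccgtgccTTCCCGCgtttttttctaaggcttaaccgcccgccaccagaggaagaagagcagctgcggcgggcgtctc
Mrps18b: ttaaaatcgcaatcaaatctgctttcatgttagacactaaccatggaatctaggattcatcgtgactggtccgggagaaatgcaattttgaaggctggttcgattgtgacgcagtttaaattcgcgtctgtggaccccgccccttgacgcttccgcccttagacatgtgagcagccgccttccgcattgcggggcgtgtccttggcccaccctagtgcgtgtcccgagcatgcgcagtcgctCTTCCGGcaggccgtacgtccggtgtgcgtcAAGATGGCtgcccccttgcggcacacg

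The labelled cell type was set against defining markers, epithelial and mesenchymal. Of 12 epithelial markers, 0 had a peak at a coding TSS, although 8 of them had a strong island (Epcam, Cdh1, Krt7, Krt19, Cldn7, Esrp1, Grhl2 and Ovol1), and Krt8, Krt18, Cldn4 and Elf5 had neither. Of 12 mesenchymal markers, 9 had a peak, among them Vim, Zeb1, Twist1, Snai1, Fn1 and Cdh2. Thy1, with a strong island of 576 bp, Col1a1 and Prrx1 had none. The peaks at these markers thus went against the epithelial label of the line, and the line is called C127 below. The wider list of epithelial junction and identity genes was not without peaks, with 27 of 36 genes unmarked, 8 marked and 1 mixed. The unmarked island of Epcam, an epithelial adhesion protein, had 110 CpGs in 997 bp, and that of Cdh1, which encodes E-cadherin, had 63 CpGs in 780 bp.

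Genes of development, of neurons, of cell adhesion and of the germline were unmarked more often than all genes with a strong island promoter, while 335 of 337 genes of basic cell functions were marked. Gene groups were built from 32 lists of gene symbols. Since the absence of a peak chose the members, counts in these lists are descriptions beside the 20.5% of all genes with a strong island promoter, and no test was made on them. The lists held 576 of the 2295 unmarked genes, and 1719 were in none of them.

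Developmental transcription factors were unmarked at 156 of 236 genes with a strong island promoter (66.1%). Tissue-specific bHLH factors, which set cell fates in nerve, muscle and gut, had the highest share of the 6 lists of this group, with 23 of 27 genes unmarked (85.2%). Olig2, an oligodendrocyte and motor neuron factor, had an unmarked island of 2654 bp, and Neurog2, which starts neuron formation, one of 2356 bp. The 4 marked bHLH genes were Atoh8, Scx, Twist1 and Twist2, and both Twist genes are factors of mesenchymal cells. Of the homeobox genes outside the Hox clusters, 74 of 104 were unmarked (71.2%). Pou3f1, a POU factor of neural and Schwann cells, had 365 CpGs in an island of 3529 bp. Tlx2, Nkx1-1 and Pou4f2 followed with islands of 2904, 2855 and 2773 bp.

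Hox cluster genes, which set position along the body axis, were unmarked at 17 of 30 genes, marked at 12 and mixed at 1. Among the 17 unmarked genes Hoxd11 had the longest island (1786 bp, 10.4 CpGs per 100 bp), followed by Hoxd8 (1538 bp), Hoxd13 (1349 bp) and Hoxa13 (1342 bp). Hoxa10 was the mixed gene, with an unmarked island of 1800 bp that lay 3567 bp from the nearest peak and a marked island of 889 bp. SOX and T-box genes were unmarked at 16 of 23 genes, and Sox1 and Sox21, both factors of the nervous system, had islands of 3057 and 3056 bp. Forkhead genes had the lowest share of the group, with 15 of 34 unmarked (44.1%). Foxl2, a factor of the ovary, had an unmarked island of 2893 bp whose nearest peak was 21754 bp away. In the list of GATA, ZIC, GLI and SALL zinc finger factors 11 of 18 genes were unmarked, including Sall1, Zic2 (2974 bp), Sall3 (2879 bp) and Zic1 (2094 bp).

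Secreted signals were unmarked at 34 of 46 genes (73.9%). Among WNT ligands 12 of 15 were unmarked, with the longest islands at Wnt3a (2425 bp) and Wnt7b (2068 bp), and the 3 marked ones were Wnt5a, Wnt9a and Wnt10b. Among FGF ligands 9 of 11 were unmarked, and the marked ones were Fgf2 and Fgf20. The marked island of Fgf20 was shared with another coding gene, Micu3. TGF-beta family ligands were unmarked at 10 of 14 genes, with Bmp6 and Bmp2 at islands of 1988 and 1688 bp. The marked ones were Tgfb1, Tgfb2, Gdf11 and Inhbb. WNT inhibitors were split, with Sfrp1, Sfrp5 and Frzb unmarked and Sfrp2, Notum and Wif1 marked.

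Neuronal genes were unmarked at 149 of 196 genes (76.0%). Neurotransmitter receptors had 48 of 54 genes unmarked (88.9%), synaptic vesicle and adhesion genes 28 of 32 (87.5%) and voltage-gated channels 45 of 53 (84.9%). Axon guidance genes, many of which also act outside the nervous system, had 28 of 57 unmarked (49.1%). The longest unmarked islands of the receptors were at Adra2a (3005 bp) and Adrb1 (2367 bp), which are adrenergic receptors, and at Grik3 (2599 bp) and Grm4 (2142 bp), which are glutamate receptors. Marked receptors included Adra1d, Chrnb1, Gabbr1, Glrb and Grin2d. Kcnc1 led the channels with 236 CpGs in 2366 bp, before the pacemaker channel Hcn4 (2166 bp). At synaptic genes, Rims2, a scaffold of the presynaptic active zone, had an island of 2444 bp with 11.0 CpGs per 100 bp, whereas Nlgn2, Stx1a, Syt17 and Unc13a were marked.

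**Figure D1:**
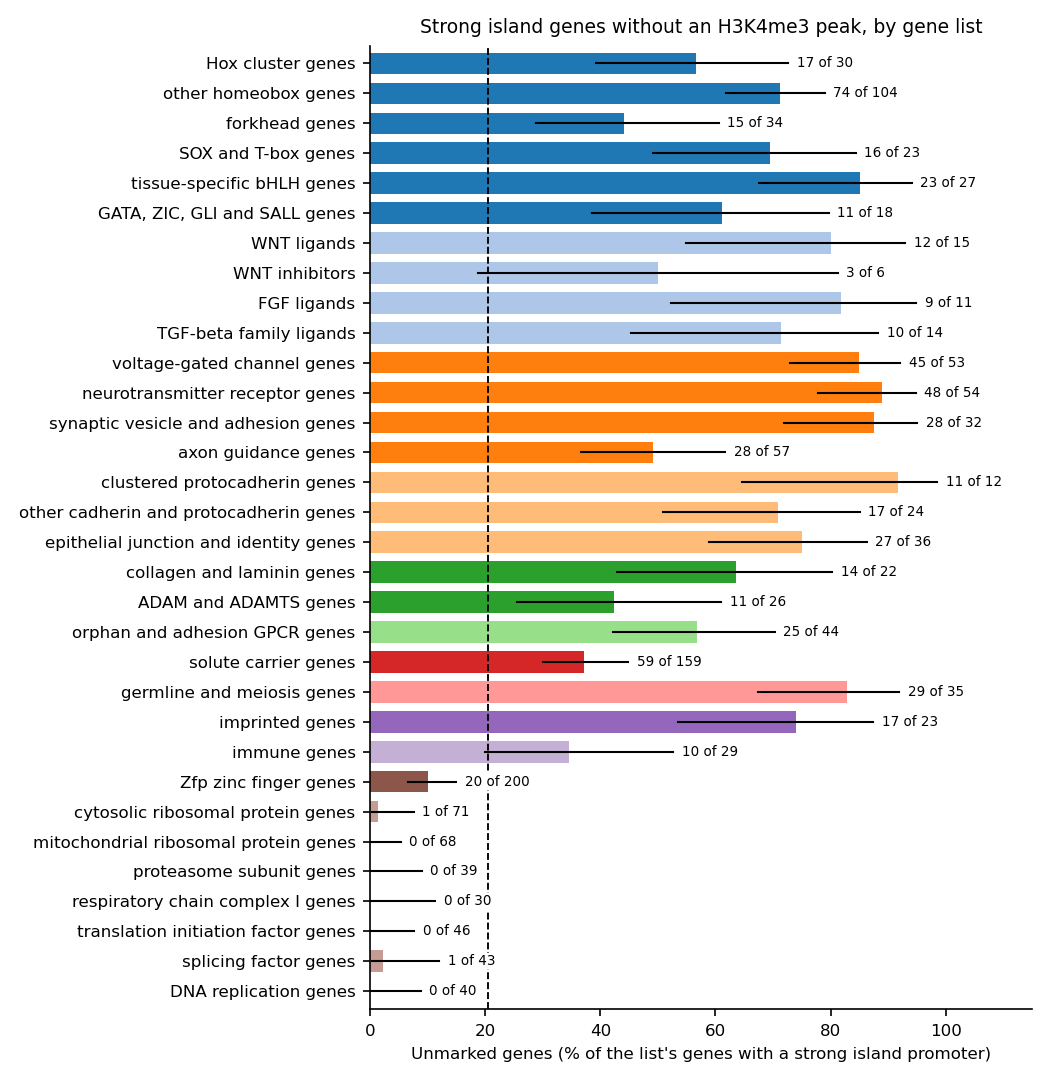
Unmarked genes as a percentage of the genes with a strong island promoter, for each of the 32 gene lists (bars, coloured by group), with 95% Wilson intervals (lines) and the counts beside them; the dashed line is the 20.5% of all 11182 such genes. Of the 32 bars, 24 lie to the right of the dashed line, and the list of Zfp zinc finger genes and the 7 lists of basic cell functions lie to the left of it.

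Cell adhesion genes were unmarked at 54 of 71 genes (76.1%). The clustered protocadherins, which give neurons their surface identity, had 11 of 12 genes with a strong island unmarked (91.7%), and Pcdhgc3 was the marked one. With a stricter definition of islands (GC fraction 0.6 and ratio 0.75 or more) the share of this list was 50.0%. Their unmarked islands were short, with a median of 573 bp, and had 5.87 CpGs per 100 bp. Other cadherins and protocadherins had 17 of 24 unmarked, led by Pcdh8 (3145 bp) and Celsr1 (2555 bp), a cadherin of planar cell polarity. Epithelial junction and identity genes had 27 of 36 unmarked, 8 marked and 1 mixed, the polarity gene Crb3. The marked island of Crb3 was shared with another coding gene, Slc25a23. Ovol2 and Ovol1, which keep cells epithelial, had unmarked islands of 1753 and 1609 bp, and Ocln, of tight junctions, one of 1660 bp.

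Collagen and laminin genes were unmarked at 14 of 22 genes and ADAM and ADAMTS proteases at 11 of 26. Col26a1 and Col13a1 had the longest unmarked collagen islands, of 1871 and 1515 bp. Orphan and adhesion G protein-coupled receptors were unmarked at 25 of 44 genes, with Adgrb2 at 2008 bp and Gpr27 at 1804 bp and 13.1 CpGs per 100 bp. Solute carriers were unmarked at 59 of 159 genes (37.1%), led by Slc18a3, the vesicular acetylcholine transporter (2668 bp). Immune genes were unmarked at 10 of 29 genes (34.5%, interval 19.9 to 52.7, which includes the share of all genes), and at 54.1% with looser islands (200 bp, GC fraction 0.5 and ratio 0.6 or more). The lymphocyte factor Ikzf1 had the most CpGs per 100 bp of the 4 longest of them (12.3).

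Germline and meiosis genes had the highest share of any group, with 29 of 35 unmarked (82.9%). Their unmarked islands had a lower median length and a nearer peak than those of developmental factors. The median unmarked island of the group was 788 bp and its nearest peak lay 26.3 kb away, against 1306.5 bp and 63.7 kb for developmental factors. Tdrd6 (1841 bp), Dazl (1652 bp), Meioc (1599 bp) and Boll (1519 bp) were the longest, and Dazl and Boll are RNA-binding proteins that germ cells need. The 6 marked genes were Msh5, Tdrd7, Tdrkh, Tex10, Tex14 and Zcwpw1. The marked island of Tex14 was shared with another coding gene, Rad51c. Imprinted genes, which are read from 1 parental copy, were unmarked at 17 of 23 genes. Peg3 and Usp29 shared an unmarked island, as did Peg10 and Sgce, so these islands count more than once. Dio3, Cdkn1c, Ascl2 and Grb10 had unmarked islands of 2767, 2706, 2248 and 1739 bp. H13, Igf2r, Ube3a and Zrsr1 were marked, and Gnas and Inpp5f were mixed.

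Genes of basic cell functions were the opposite case. Of 337 genes in 7 lists, 2 were unmarked (0.593%, interval 0.163 to 2.14). These were Rpl10l, a testis-expressed copy of a ribosomal protein gene that also stands in the germline list (829 bp), and Srsf12, of the SR splicing factor family (731 bp). No unmarked gene was found among 68 mitochondrial ribosomal proteins, 39 proteasome subunits, 30 subunits of respiratory complex I, 46 translation initiation factors and 40 DNA replication genes. Zfp zinc finger genes, most of which encode DNA-binding repressors, were unmarked at 20 of 200 genes (10.0%), with Zfp536 at the longest island (1954 bp). With looser islands their share was 17.8%.

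Words in RefSeq gene descriptions, chosen after the first results were seen, covered more of the unmarked genes. A description was found for 2203 of the 2295 unmarked genes. Genes with "cadherin" in the description were unmarked at 31 of 44, with "homeobox" at 79 of 129, with "channel" at 85 of 140 and with "receptor" at 213 of 507 (42.0%). Transmembrane proteins without a better name (39 of 165, 23.6%) and genes known by a RIKEN clone name (34 of 151, 22.5%) were near the share of all genes. At the other end, "ubiquitin" gave 7 of 166, "mitochondrial" 4 of 222, "ribosomal" 3 of 168 and "proteasome" 0 of 42, with an upper Wilson bound of 8.38%.

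Unmarked islands were slightly shorter than marked ones, but the difference ran in both directions along the range of lengths. The median was 898 bp (quartiles 680 to 1236) in unmarked islands and 931 bp (729 to 1198) in marked islands, a difference of -33 bp that was negative on 15 of 19 chromosomes (mean over chromosomes -34.8 ± 51.2 bp, SD, adjusted p = 0.0111, permutation test). The test of this and of the following differences was a permutation test that flipped signs of the per-chromosome differences over 19 autosomes (two-sided, Benjamini-Hochberg adjusted over 20 measures). In 5 classes of nearly equal size, the share of unmarked islands was 28.4% in the shortest class (500 to 678 bp), 21.8%, 20.0% and 18.9% in the next ones, and 25.9% in the longest (1299 to 4358 bp). The share was thus lowest in class 4 of 5 (1017 to 1298 bp). Of the 385 islands over 2000 bp, 107 were unmarked (27.8%). A longer island is overlapped more easily under the rule of at least 1 bp, which bears on the length difference. The size, sign and call of the length difference depended on the definition of an island. With looser islands, which may be as short as 200 bp, the difference was -369 bp (adjusted p = 7.27e-05, permutation test). With stricter islands it was 20.5 bp (adjusted p = 0.242, permutation test), and within 5 classes of CpG number around the TSS it was 21.2 bp with unmarked islands longer (adjusted p = 0.0409).

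Of the 107 unmarked islands over 2000 bp, 32 were at developmental transcription factors. Among islands over 2000 bp, those at these factors were unmarked at 32 of 52 (61.5%) and those at other genes at 75 of 333 (22.5%). At other genes the share of the longest class was 23.5% and that of the shortest class 27.7%. At the developmental factors the share was 64.5% in the longest class and 74.3% in the shortest, and it was above the 23.0% of all islands in each length class. The 10 longest unmarked islands were at Sall1 (3536 bp), Pou3f1 (3529 bp), Prdm16 (3358 bp), Pcdh8 (3145 bp), Ajm1 (3106 bp), Insm1 (3090 bp), Fzd8 (3082 bp), Sox1 (3057 bp), Sox21 (3056 bp) and Adra2a (3005 bp). Sall1, Pou3f1, Prdm16, Insm1, Sox1 and Sox21 encode transcription factors and Fzd8 a WNT receptor. The island of Ajm1, an apical junction gene, lay 143 bp from a peak, and those of the other 9 lay between 31235 and 341133 bp from one.

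Unmarked islands had fewer CpGs for their base composition. The median observed over expected ratio was 0.773 in unmarked islands and 0.817 in marked islands, and the difference was negative on 19 of 19 chromosomes (mean -0.0480 ± 0.0166, SD, adjusted p = 0.00016, permutation test). The difference in medians was -0.0441, and it was -0.120 with looser and -0.0274 with stricter islands. The share of unmarked islands was 35.7%, 26.5%, 22.8%, 17.4% and 12.6% in 5 classes from the lowest ratio (up to 0.727) to the highest (0.893 to 1.16). GC content went the other way, with 65.9% in unmarked islands and 64.7% in marked islands (higher on 17 of 19 chromosomes, adjusted p = 0.0002, permutation test), although it was 1.23 percentage points lower in unmarked islands when islands were defined more loosely. The CpG density was 8.22 CpGs per 100 bp in unmarked islands and 8.46 in marked islands (adjusted p = 0.0019, permutation test). The quartiles of density, 7.16 to 9.50 in unmarked islands and 7.35 to 9.74 in marked islands, overlapped over most of their range. The difference of -0.24 was -1.37 with looser islands (adjusted p = 7.27e-05, permutation test) and 0.0196 with stricter ones (adjusted p = 0.74, permutation test).

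**Figure D2:**
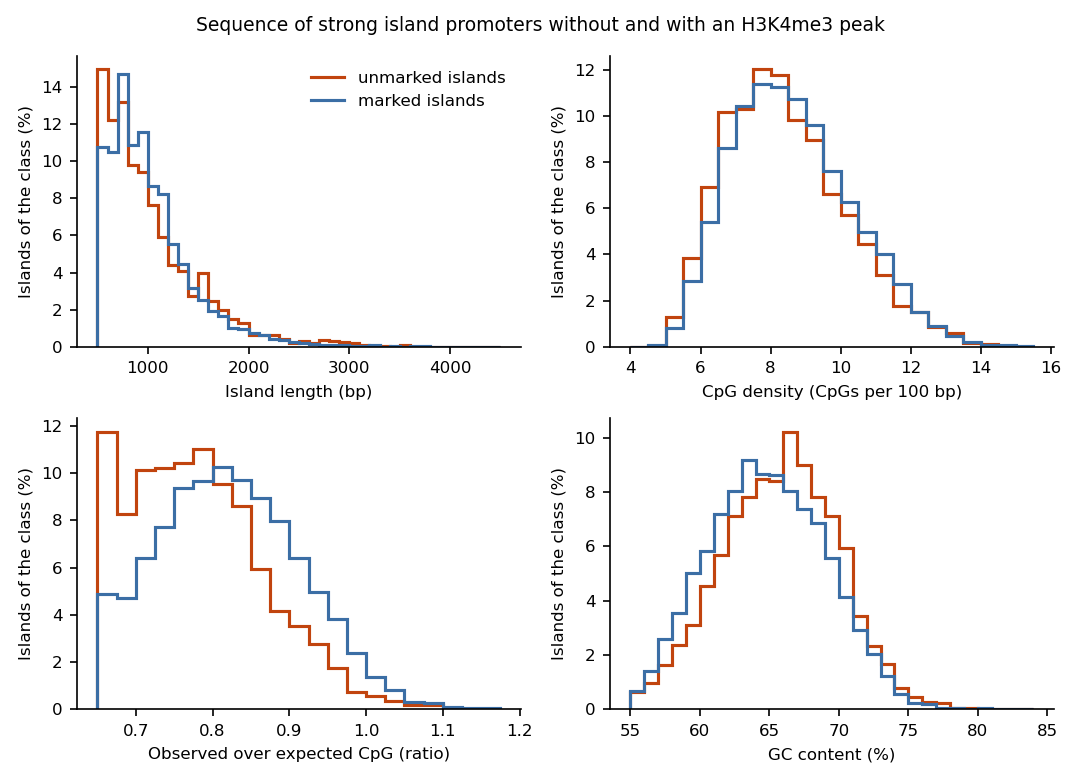
Distribution of island length (bins of 100 bp), CpG density, observed over expected CpG ratio and GC content in 2415 unmarked islands and 8078 marked islands, each as a percentage of its class. The classes overlap in each panel; for the ratio the medians are 0.773 in unmarked islands and 0.817 in marked islands and the quartiles 0.713 to 0.835 and 0.754 to 0.886.

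A fixed window gave the same direction. Within 250 bp on each side of the TSS, unmarked islands had a median of 42 CpGs (quartiles 32 to 54) and marked islands 47 (38 to 57), and the difference was negative on 17 of 19 chromosomes (adjusted p = 0.000171, permutation test). The difference of -5 CpGs was -16 with looser islands, -2 with stricter ones and -3 with the TSS inside the island. The share of unmarked islands was 34.3% where the window held 2 to 34 CpGs, 17.6% where it held 50 to 60 and 19.8% where it held 61 to 103. Jag2 had the highest density of all unmarked islands, with 255 CpGs in 1772 bp (14.4 per 100 bp). Cacna1d, an L-type calcium channel, had 14.4 and Scn8a, a neuronal sodium channel, 14.1 CpGs per 100 bp. Jazf1, Phf24, Lrp3, Tcfl5, Mpped1, Adgrb1 and Pde8a followed with 13.8 to 13.4.

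**Figure D3:**
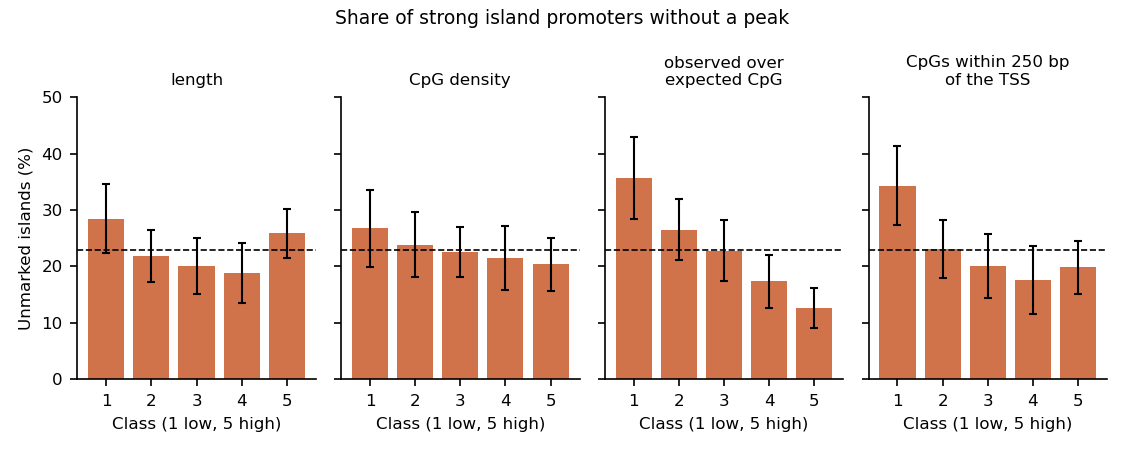
Share of unmarked islands in 5 classes by island length, CpG density, observed over expected CpG ratio and CpGs within 250 bp of the TSS, of nearly equal size for the first 3 measures and of 1950 to 2270 islands for the last. Bars are shares over all islands of a class, error bars the SD of the share over 19 chromosomes and the dashed line the 23.0% of all islands. The share falls from class to class for the ratio (35.7% in the lowest, 12.6% in the highest) and is lowest in class 4 for length (18.9%).

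Unmarked promoters also differed in the motifs at the TSS, and in percentage points the difference was largest for ETS factors among the 12 motifs counted. A motif was counted where its letters stood on either strand between 250 bp before and 50 bp after the TSS nearest the middle of the island. A match is a description of the letters and a base could count for more than 1 motif. CCGGAAG (ETS) stood in 129 unmarked windows (5.34%) and 1676 marked windows (20.7%), and in 11.4% of 39600 coding TSS windows of all kinds. The difference of -15.4 percentage points was negative on 19 of 19 chromosomes (SD 2.76, adjusted p = 0.00016, permutation test). GCATGCGC (NRF1) stood in 2.53% of unmarked and 6.55% of marked windows, against 3.36% of all coding windows. AAGATGGC (YY1) stood in 1.04% of unmarked and 5.81% of marked windows, against 3.33% of all coding windows. Both differences were also negative on 19 of 19 chromosomes (adjusted p = 0.00016 each, permutation test). Islands with the ETS motif were unmarked at 7.15%, those with NRF1 at 10.3% and those with YY1 at 5.06%, the lowest of these shares. Islands with none of these 3 motifs were unmarked at 28.1% (2207 of 7855), those with 1 of them at 8.39% (201 of 2397), and those with 2 or 3 at 2.90% (7 of 241).

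The ETS motif was less frequent in unmarked windows in each of the 5 classes of CpG number. From the lowest class to the highest, it stood in 5.11%, 4.97%, 5.87%, 7.09% and 4.05% of unmarked windows and in 20.3%, 25.5%, 22.5%, 21.1% and 13.8% of marked windows. It was found at 7 of 20 unmarked and 49 of 179 marked Zfp zinc finger genes, a list in which the unmarked genes did not have the lower share. The same held for cell adhesion genes (5 of 54 unmarked, 0 of 16 marked) and imprinted genes (2 of 17 unmarked, 0 of 4 marked). Unmarked genes had the lower share among solute carriers (0 of 59 against 23 of 100). In other groups the same direction rested on few genes with the motif. These were neuronal (6 of 149 against 3 of 46), extracellular matrix (0 of 25 against 2 of 23) and receptor genes (0 of 25 against 1 of 19). Germline (3 of 29 against 2 of 6) and immune genes (0 of 10 against 2 of 19) were further ones. No secreted signal had the motif. Among the genes of basic cell functions 118 of 335 marked genes had the motif. Of the developmental factors, 4 of 156 unmarked genes (2.56%) and 2 of 76 marked genes (2.63%) had it.

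Other motifs of broadly acting factors were less frequent in unmarked windows by smaller amounts. CCAAT (NF-Y) stood in 28.7% of unmarked and 36.3% of marked windows, against 36.5% of all coding windows (adjusted p = 0.000171, permutation test). Its share and direction differed between gene groups. Developmental factors had it at 71 of 156 unmarked (45.5%) and 39 of 76 marked genes (51.3%), secreted signals at 13 of 34 unmarked and 2 of 12 marked genes. TGACGTCA (CREB and ATF) stood in 2.19% of unmarked and 3.90% of marked windows, against 2.29% (adjusted p = 0.00127, permutation test). TTCCCGC (E2F) stood in 8.28% of unmarked and 10.5% of marked windows, against 6.16% (adjusted p = 0.00563, permutation test). GGGGCGGGG (SP and KLF) stood in 23.8% of unmarked and 27.6% of marked windows, against 15.5% (adjusted p = 0.0111, permutation test). CACGTG, an E-box of MYC, MAX and USF among others, stood in 8.86% of unmarked and 11.0% of marked windows, against 7.57% (adjusted p = 0.017, permutation test). Within classes of CpG number the E2F, SP and KLF, and CACGTG motifs were not past the threshold of 0.05 (adjusted p = 0.096, 0.36 and 0.117 by the same permutation test).

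A few motifs were more frequent in unmarked windows. CAGCTG, an E-box of tissue-specific bHLH factors, stood in 16.2% of unmarked and 13.2% of marked windows, against 15.5% of all coding windows (higher on 14 of 19 chromosomes, adjusted p = 0.0111, permutation test). TTCAGCACC, part of the RE1 element bound by the neuronal repressor REST, stood in 17 unmarked windows (0.704%) and 19 marked windows (0.235%), against 0.386% of all coding windows (adjusted p = 0.0186, permutation test). TATAAA stood in 6.25% of unmarked and 5.03% of marked windows, against 11.8% (adjusted p = 0.0487, permutation test). The last 2 were not past the threshold within classes of CpG number (adjusted p = 0.0591 and 0.421, permutation test). TAATTA, a homeodomain core, stood in 1.61% of unmarked and 1.41% of marked windows, against 4.74% (adjusted p = 0.701, permutation test).

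**Figure D4:**
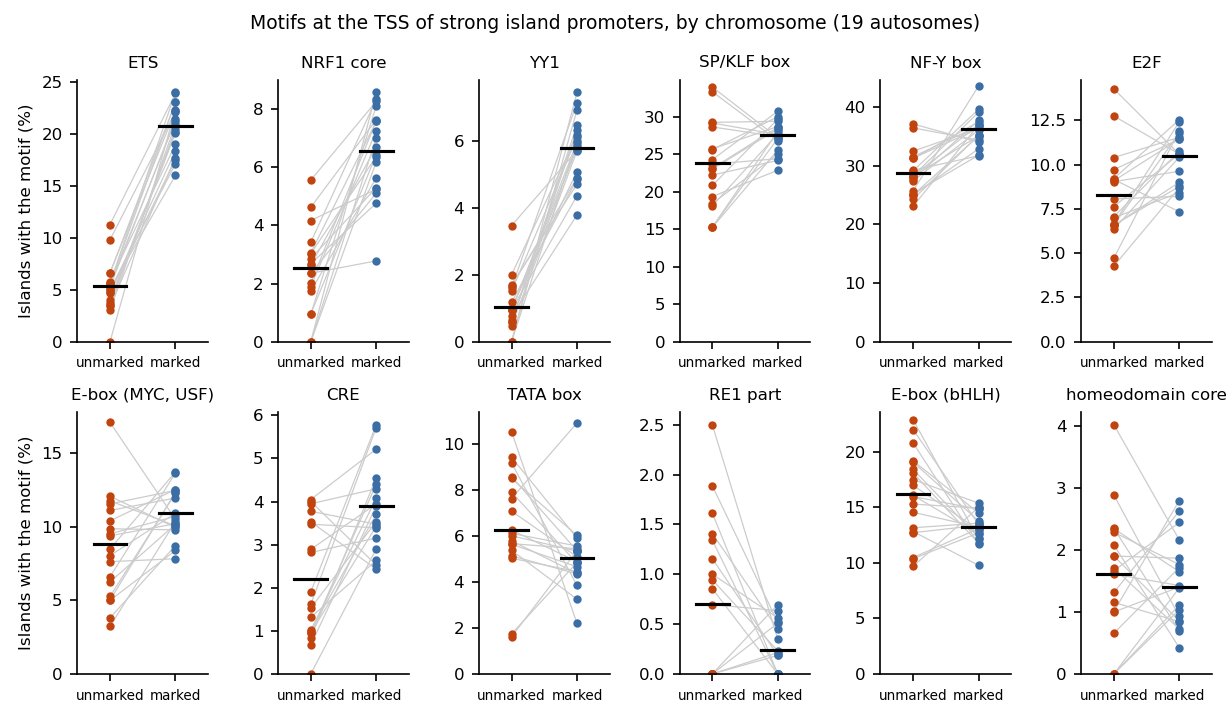
Percentage of islands with each of 12 motifs at the TSS in unmarked islands (left) and marked islands (right). Each point is 1 of 19 chromosomes, grey lines join the values of a chromosome and black lines give the share over all islands; the panel of the E-box of MYC and USF counts CACGTG, that of the bHLH E-box counts CAGCTG and that of the NF-Y box counts CCAAT. For the ETS motif the shares over all islands are 5.34% and 20.7%, and no chromosome has the higher share in unmarked islands.

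Among unmarked germline genes, the E2F motif and the CACGTG E-box were counted in a larger share of windows than among all unmarked islands. The E2F motif stood in 12 of 29 unmarked germline windows (41.4%) and the CACGTG E-box in 11 of 29 (37.9%), against 8.28% and 8.86% of all unmarked windows. Stag3, Ddx4, Slc25a31, Tex12 and Sycp3 had both, as printed for Stag3 above. Ddx4 is an RNA helicase of germ cells, and Tex12 and Sycp3 belong to the synaptonemal complex that pairs chromosomes in meiosis. In the germline list 2 of 6 marked genes had the E2F motif and 1 of 6 had the E-box, so that marked genes of the list held them too. In the unmarked developmental factors the shares were 6.41% and 14.1%, and in the unmarked neuronal genes 5.37% and 9.40%. No test was made on these shares.

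Unmarked islands belonged less often to promoters called divergent here, with a TSS of the other strand within 1000 bp on either side. That TSS could be of a coding or a long non-coding RNA gene, and the orientation of the pair was not checked. Promoters called divergent made up 12.9% of unmarked islands and 22.9% of marked islands. The difference was negative on 19 of 19 chromosomes (mean -10.6 ± 3.82 percentage points, SD, adjusted p = 0.00016, permutation test). Genes with an unmarked island were longer, with a median span of 38.7 kb for unmarked islands against 25.8 kb for marked islands (higher on 18 of 19 chromosomes, adjusted p = 0.000444, permutation test). The lower quartile ran the other way, with 10.5 kb for unmarked and 11.3 kb for marked islands, and the difference in medians of 12.9 kb was 5.17 kb with looser islands. They had fewer exons, with a median of 8 exons for unmarked islands against 10 for marked islands (adjusted p = 0.00088, permutation test). Genes with 1 exon were unmarked at 151 of 326 islands (46.3%), those with 2 to 5 exons at 28.9%, those with 6 to 10 at 20.0%, those with 11 to 20 at 18.9% and those with 21 or more at 22.6%. The island covered the TSS itself at 91.0% of unmarked and 98.0% of marked islands.

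The unmarked islands were mostly far from any peak. The nearest peak lay a median of 68028 bp away (quartiles 25313.5 and 173614 bp, range 13 to 5152373 bp), and 31 of the 2415 had a peak within 1000 bp. The nearest were at Lin7b, a polarity and synapse scaffold (13 bp), and at Mterf1a and Mterf1b, copies of a mitochondrial transcription terminator (50 and 59 bp). The smallest overlaps that made an island marked were 12 bp at the heat shock gene Hspa1b, 33 bp at Ccdc69 and 91 bp at Smpd3. Of the 50-bp words in the islands of Mterf1a, Mterf1b and Hspa1b, 94.8%, 90.0% and 80.5% recurred elsewhere in the genome. Reads without a unique position were discarded by the authors, and the part this played at these islands was not tested. On the other edges of the rule, islands of 500 to 599 bp were unmarked at 29.3% of 1231 and those of 400 to 499 bp, just outside the rule, at 40.0% of 707. Islands 201 to 250 bp from the nearest coding TSS were unmarked at 20 of 36 and those 251 to 300 bp away at 19 of 41.

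**Figure D5:**
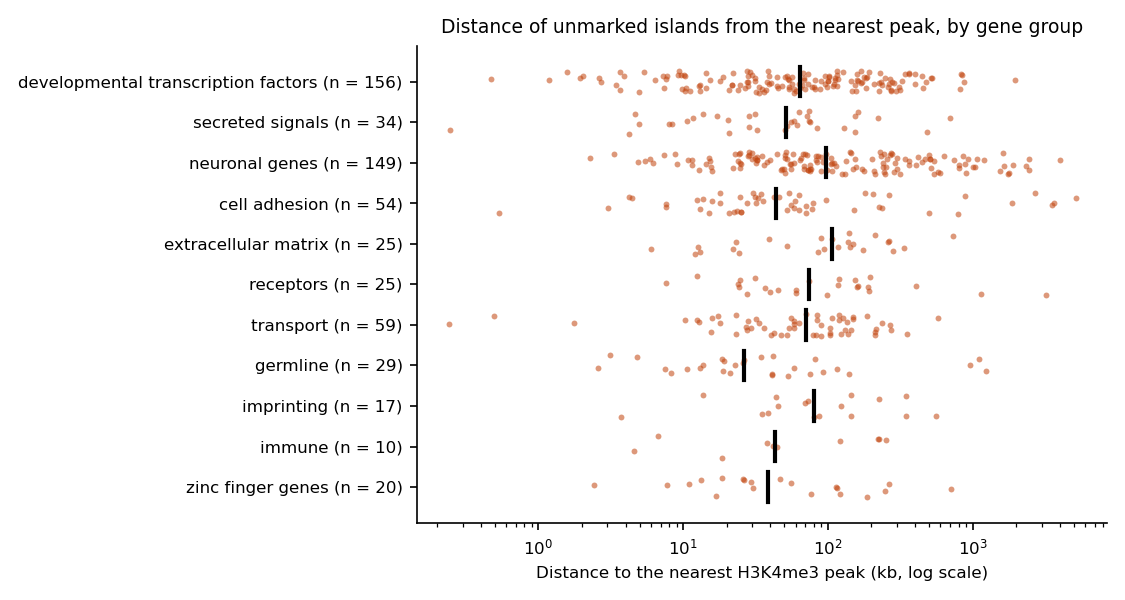
Distance of the longest strong island of each unmarked gene from the nearest H3K4me3 peak in kb (log scale), by gene group, with 1 point per gene and a black line at the median of the group; groups with under 10 unmarked genes are left out. Medians range from 26.3 kb in the germline group to 107 kb in the group of extracellular matrix genes.

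Unmarked islands lay in runs in some regions. Among islands of this kind in genome order, 524 unmarked islands stood in 136 runs of 3 or more without a marked one between them, and 1189 stood alone. The number of runs that the 23.0% share alone would give was not computed, so these counts are a description. The longest run held 26 islands on chromosome 14 (3049110 to 7791932), at predicted genes such as Gm2897. In 18 of these 26, over 50% of the 50-bp words of the island recurred elsewhere in the genome. The next held 14 islands over 535 kb of chromosome 4, with Ifnz, an interferon zeta gene, 12 predicted genes and Cdkn2a, a cell cycle inhibitor locus whose island had 164 CpGs in 1610 bp. Recurring words were above 50% in 13 of these 14. The authors discarded reads without a unique position. Islands of mostly recurring words were 95 of the unmarked islands (3.93%) and 28 of the marked islands (0.347%), and their part in the runs was not tested. Without them the share of unmarked islands was 22.4%.

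The next 2 runs had no recurring islands. The third run in length held 12 islands of the clustered protocadherins on chromosome 18. The HoxD cluster, chosen after its values were seen, followed with 10 islands over 105 kb of chromosome 2, from Evx2 and Hoxd13 to Hoxd1. Within it the islands ranged from 524 bp at Hoxd3 to 1786 bp at Hoxd11, and that of Hoxd8 had 13.1 CpGs per 100 bp. By chromosome the share of unmarked islands was 23.2% ± 3.37 (SD over 19 chromosomes). It was highest on chromosomes 14 (29.8%), 12 (29.6%) and 4 (26.9%) and lowest on chromosomes 16 (18.1%), 8 (18.4%) and 11 (19.6%). The shares of chromosomes 14 and 4 include the 2 longest runs, with 18 and 13 islands of mostly recurring words. Shares by chromosome without such islands were not computed.

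Mixed genes showed unmarked and marked islands side by side at a single gene. Only those in the gene lists are named here, out of 86 mixed genes. Pax6, the factor of eye development, had an unmarked island of 507 bp and marked islands of 649 and 877 bp. Pax9 had an unmarked one of 600 bp and a marked one of 1923 bp. Lhx2 had an unmarked one of 1128 bp and a marked one of 1626 bp, of which a peak covered 999 bp. At the imprinted gene Gnas, which has several start sites, an island of 797 bp was unmarked and islands of 1124 and 2947 bp were marked over their whole length. At Zfp800 the unmarked island had 6.10 CpGs per 100 bp and the marked one 13.2. Among the mixed genes of the lists, the longest island was marked at Crb3, Gnas, Inpp5f, Lhx2, Pax6, Pax9, Sema6d and Zfp800, and unmarked at Hoxa10. A peak overlaps a longer island more easily under the rule of at least 1 bp, so this is a description.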

How the data were processed

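C127 cells were crosslinked with formaldehyde for ChIP-seq of H3K4me3 in 3 replicates, grouped by the labels. Alignment by the authors used bowtie2 and mm10, and discarded both PCR duplicates and reads with several positions. Each replicate was then searched for peaks with MACS against a control, and a peak was retained if every replicate had it, with close neighbours joined. No version of Bowtie2, SAMtools or MACS2 is given in the processing notes of the submitters. The deposited list holds 3 columns (chromosome, start and end in bp) with no score or other value, so depth per sample is unknown, and a peak missing in 1 replicate is missing from the list. Starts were converted to 1-based positions.

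Islands were found in the GRCm38.p6 sequence (mm10) by sliding 200-bp windows that passed the thresholds, extended, trimmed and joined when under 100 bp apart. TSSs came from GENCODE vM21 basic transcripts, and gene descriptions from RefSeq. An island was marked when a peak overlapped it by at least 1 bp. A gene was assigned every strong island within 250 bp of its TSSs, and the values of a gene are those of its longest one. Words of 50 bp, taken every 5 bp, were searched on 21 chromosomes.

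Differences are unmarked minus marked, by chromosome, with 100000 sign flips (smallest p 2e-05). Chromosomes are the units because neighbouring loci are not independent. The tests measure spread over chromosomes and not between cultures. Intervals are 95% Wilson intervals and cover counting error over loci. Methods were tested on simulated data. Alternatives changed the island definition, the TSS rule and the rule for a peak. The text names the 10 longest and the 10 densest unmarked islands, up to 4 unmarked genes with the longest island in each list, every gene of the smaller side of a list where it had 6 or fewer, the mixed genes of the lists, the islands nearest the peak threshold, the 3 longest runs, 3 chromosomes at each end of the range of shares and the cell type markers. A few genes that this rule names are not reported here. Members, lists and named genes were chosen with earlier results of these data known. Python 3.11.15, numpy 2.4.6, pandas 2.3.3, scipy 1.17.1, numba 0.67.0 and matplotlib 3.10.9 were used.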

Additional observations from a re-analysis of the deposited data

How the results depend on the processing

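Looser islands (at least 200 bp, GC 0.5, ratio 0.6) gave 4875 unmarked islands (34.0%, main value 23.0%) and a GC content lower in unmarked islands by a difference of -1.23 percentage points (adjusted p = 9.23e-05, permutation test). Stricter islands (500 bp, GC 0.6, ratio 0.75) gave a share of 20.7%, and length and density differences of 20.5 bp (adjusted p = 0.242, permutation test) and 0.0196 CpGs per 100 bp (adjusted p = 0.74). The share was 24.9% with 500-bp search windows, 21.7% with the TSS inside the island, 24.5% with a TSS within 1000 bp, 22.1% with 1 TSS per gene and 24.3% with peaks of at least 1000 bp. The length difference was 21.2 bp within classes of CpG number (adjusted p = 0.0409, permutation test), -8 bp with the TSS inside the island (adjusted p = 0.486) and -20.5 bp with 1 TSS per gene (adjusted p = 0.0948). The share in the lowest minus that in the highest class of CpG number was 51.3 percentage points with looser islands, 7.60 with stricter ones, 20.5 with 500-bp windows, 8.21 with the TSS inside the island and 19.7 with a TSS within 1000 bp. The cause of these changes was not tested. The ETS difference ranged from -15.9 to -14.6 percentage points, and 24 of 32 lists lay above the share of all genes, in every setting run. For the other motifs, 14 values were no longer past the threshold and 1 (TAATTA with looser islands) newly was. No paired analysis was possible because a single list stands for all 3 replicates, and for the same reason no replicate could be left out. Without heights or depth, a weak peak and no peak cannot be told apart.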

Other observations

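Other words in gene descriptions, chosen after the first results were seen, gave shares of unmarked genes on both sides of 20.5%. That is the share of all genes with a strong island promoter. Above it were "synapse" (27 of 46 genes), "neuronal" or "neural" (31 of 60) and "testis" or "sperm" (22 of 64). Below it were "protein kinase" (78 of 486) and "DNA" (7 of 134). Divergent promoters made up 50.0% of the 10 unmarked immune genes, 35.3% of the 17 unmarked imprinted genes and 2.94% of the 34 unmarked secreted signals. Over all unmarked islands the share was 12.9%. These groups are small, and no test was made on their shares. The imprinted share counts genes and not islands, and Peg3 and Usp29, and likewise Peg10 and Sgce, shared an island. In 58 unmarked islands several coding genes shared the island.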
